A study of Homo sapiens with 3 samples.

Results

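Complex III, also called the cytochrome bc1 complex, is the middle enzyme of the mitochondrial respiratory chain. It takes electrons from reduced coenzyme Q in the inner mitochondrial membrane, passes them to cytochrome c and moves protons across the membrane as it does so. One of its subunits, cytochrome b, is made inside mitochondria from the MT-CYB gene, and the others are encoded in the nucleus, made by cytosolic ribosomes and imported. The genes described here are 9 nuclear subunit genes of the complex (UQCRC1, UQCRC2, CYC1, UQCRFS1, UQCRB, UQCRQ, UQCRH, UQCR10 and UQCR11) and CYCS, which encodes the somatic form of cytochrome c. The rule took these gene names and set no threshold on any value, which gave 10 of the 63241 genes in the count table.

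Ribosome profiling (Ribo-seq), the sequencing of mRNA fragments shielded by ribosomes, was used to compare ribosome occupancy in HEK293T, a line from human embryonic kidney in which the SV40 large T antigen binds p53. The cells carried a wild-type p53 construct (WT) or one with the hotspot mutation G245S or R273H in the DNA-binding domain. The lines were made by lentiviral transduction and puromycin selection per the study's methods, although other labels speak of transient expression and the treatment label of both mutant samples names the wild-type construct, so groups were taken from sample titles. Each group had 3 dishes (n = 3, the replicates here) with barcoded linkers, and its dishes were combined at reverse transcription, so cell line, pool and p53 form cannot be told apart and p-values measure only the spread between dishes. All groups received cycloheximide before harvest and micrococcal nuclease after lysis, and cells without a p53 construct were not analysed here.

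Each library held 18.7 to 24.6 M footprint counts, and the 10 genes had mean counts of 2560 to 8919 per library. CDKN1A and MDM2, which p53 activates, had lower footprint counts in both mutants, with log2 fold changes of -1.92 and -3.48 in G245S and of -2.14 and -3.49 in R273H. The epithelial keratins KRT18 and KRT8 had 107 to 122 and 32.6 to 44.7 CPM (footprints on a counts-per-million scale), whereas the epithelial markers EPCAM and CDH1 and the kidney developmental factors PAX2 and LHX1 ranged from 3.04 to 8.63 CPM. Markers of leukocytes, endothelium, hepatocytes and muscle were at or near 0, with at most 0.16 CPM. The fibroblast marker COL1A1 was not near 0, at 24.8 to 34.2 CPM, and the summed level of the 5 other-cell markers was 30.9 to 34.2 CPM in WT, 24.9 to 29.6 in G245S and 26.6 to 29.3 in R273H; its part in the results was not tested.

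Several of these genes have near-identical copies elsewhere in the genome, and a footprint of about 30 bases can come from either. In the coding region of UQCRFS1, 74.1% of all 30-base windows also occurred in another annotated gene, mainly the processed pseudogene UQCRFS1P1. The share was 71.3% for UQCRH, mainly with UQCRHL, and 69.6% for CYCS, which shared windows with 22 other genes, CYCSP45 and ENSG00000188512 holding 110 each. The stretches below show where the gene and a copy can be told apart, with the letters that differ in capitals. They were read from GRCh38 on the coding strand, 5′ to 3′, with positions counted from 1 at the first base of the coding region, and the gene stands first in each pair. The UQCRFS1 stretch is coding bases 1 to 30 in exon 1 at chr19:29213089-29213118 (minus strand), and that of UQCRFS1P1 is at chr22:39875291-39875320 (plus strand).
UQCRFS1: atGTTgtcggtAgcaTcccgctcAggcccg
UQCRFS1P1: atTCGgtcggtCgcaGcccgctcGggcccg
The UQCRH stretch is coding bases 143 to 172 in exon 3 at chr1:46310216-46310245 (plus strand), and that of UQCRHL is at chr1:15807478-15807507 (minus strand).
UQCRH: agcggctagagctctGtgatgagcGtgtat
UQCRHL: agcggctagagctctAtgatgagcAtgtat
The CYCS stretch is coding bases 87 to 116 in exon 2 at chr7:25124004-25124033 (minus strand), and that of CYCSP45 is at chrX:153841337-153841366 (plus strand).
CYCS: tgggccaaatctccaTggTctcttTgggcg
CYCSP45: tgggccaaatctccaAggCctcttCgggcg
The differences, written with the gene's base first, are G3T, T4C, T5G, A12C, T16G and A24G for UQCRFS1, of which G3T alters the start codon, G158A and G167A for UQCRH, and T102A, T105C and T111C for CYCS. Over the aligned coding bases the copies were 98.5% identical for UQCRFS1 (12 of 818 bases differ), 98.6% for UQCRH (4 of 276) and 95.2% for CYCS (15 of 315).

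Of all counts assigned to a gene and to those sharing its windows, UQCRFS1 received 57.3% to 61.0% across libraries, UQCR11 74.8% to 78.7%, CYCS 77.7% to 79.6%, UQCRH 83.3% to 85.7% and UQCRB 97.1% to 98.1%. Every window of UQCR11 also belongs to an overlapping protein-coding gene on the same strand, ENSG00000267059. UQCRC1, UQCRQ, UQCR10 and CYC1 shared no window with another gene, and UQCRC2 shared 1.43% of its windows. How the authors assigned a read that matches several genes is not given in the sources used here, so the values of UQCRFS1, UQCRH, CYCS, UQCR11 and, to a smaller degree, UQCRB are uncertain. On the opposite strand UQCRB overlaps UQCRB-AS1, UQCRQ overlaps GDF9 and UQCR10 overlaps the lncRNA ENSG00000287967, and it is not stated that counting used strand.

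**Figure D1:**
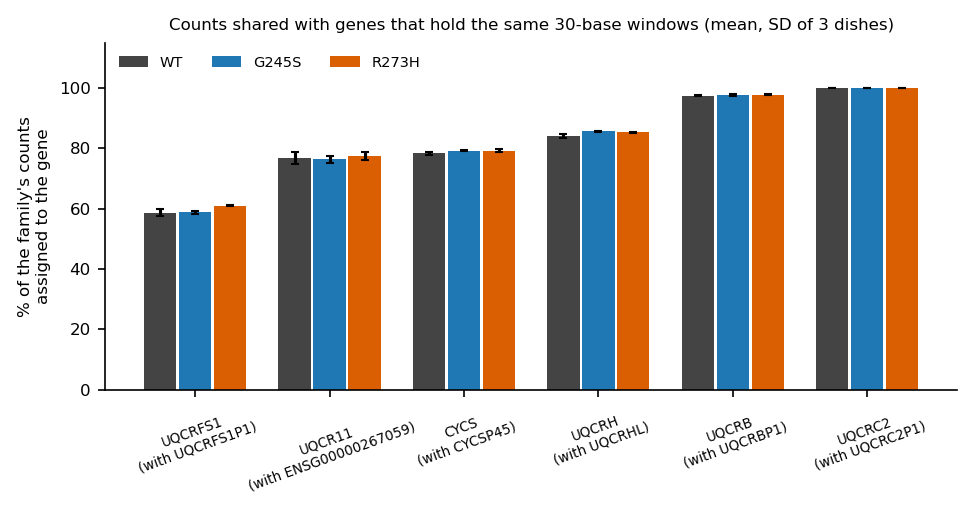
Percent of a family's footprint counts that was assigned to the named gene (y axis), for the 6 genes that share 30-base windows with other genes; the other gene of the family with the most counts is in brackets. Bars are means of 3 dishes per group and error bars are SD. UQCRFS1 kept the smallest share, with means of 58.6% in WT, 58.7% in G245S and 60.9% in R273H, and UQCRC2 kept nearly all.

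In G245S, footprints rose on 3 of the 10 genes, the core subunits UQCRC1 and UQCRC2 and cytochrome c1 (CYC1), and fell on 3, the small subunits UQCRB, UQCRQ and UQCR10. In R273H, footprints rose on UQCRC2 and CYC1 and fell on 6 genes, all 5 small subunits and CYCS. These calls used edgeR's quasi-likelihood test with Benjamini-Hochberg adjusted p under 0.05 over 19820 genes. In G245S 24.7% of all genes tested were called, 12.6% as higher and 12.1% as lower, and in R273H 28.8% were called, 14.2% as higher and 14.6% as lower. The median log2 fold change over the 10 genes was -0.05 in G245S and -0.08 in R273H, beside medians over all genes tested of -0.00069 and -0.0024, and without WT dish 3 the R273H median was -0.05. Both comparisons share the WT dishes. The fit did not pair dishes by number, although dishes of the same number were more alike across groups. With dish number as a replicate block, UQCRC1 and UQCRFS1 were also called higher in R273H and UQCRH lower in G245S. Matched mRNA levels were not used here, so less mRNA per cell, fewer ribosomes per mRNA and fewer cells of a kind cannot be told apart.

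**Figure D2:**
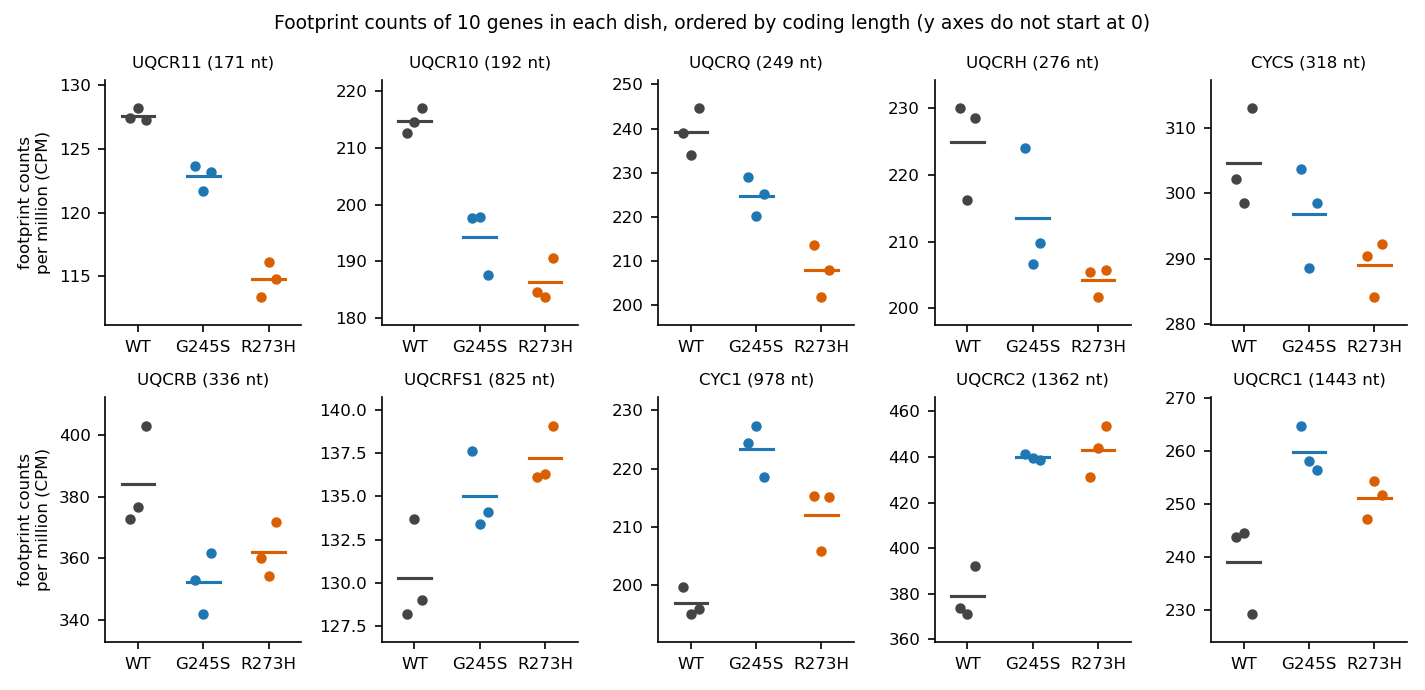
Footprint counts in CPM (y axes, each with its own range and not starting at 0) of the 10 genes in each dish (points), with the group mean (line), ordered by coding length. In the top row and for UQCRB the mutant means lie below WT, and for UQCRFS1, CYC1, UQCRC2 and UQCRC1 they lie above it.

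UQCRC1 and UQCRC2 form the core of the complex on the matrix side and carry no redox centre. UQCRC2 (ENSG00000140740, chr16:21953288-21983660, plus strand) had 374, 371 and 392 CPM in the WT dishes, 441, 439 and 439 in G245S, and 431, 444 and 454 in R273H. All 6 mutant dishes lay above all 3 WT dishes. On the log2 scale G245S was higher by 0.21 ± 0.03 (SE, adjusted p = 3.47e-07) and R273H by 0.22 ± 0.03 (adjusted p = 1.14e-07), increases of 16% and 16.8%. It was the largest change in either direction among the 10 genes in both mutants. In R273H the falls of UQCR10 (-0.21 ± 0.03) and UQCRQ (-0.20 ± 0.03) were of similar size within the SE.

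UQCRC1 (ENSG00000010256, chr3:48599002-48610976, minus strand) had 244, 244 and 229 CPM in WT, 265, 258 and 256 in G245S, and 247, 254 and 252 in R273H. Its WT dish 3 was the lowest of the 9 and the G245S dishes were the highest. G245S passed with a log2 fold change of 0.12 ± 0.03 (adjusted p = 0.00236), whereas the 0.07 ± 0.03 in R273H did not pass (adjusted p = 0.0604). In R273H it passed narrowly with RLE (adjusted p = 0.0477) or upper-quartile normalization (0.0224) and with no filter on low counts (0.0498). It also passed there with dish number as a replicate block and without G245S dish 3, and it was 0.04 without WT dish 3. The UQCRC1 to UQCRC2 ratio, which does not depend on library scaling, was 0.632 ± 0.041 (SD, n = 3) in WT, 0.591 ± 0.0083 in G245S and 0.567 ± 0.011 in R273H. Its log2 differences were -0.10 in G245S against WT (exact permutation test, two-sided, p = 0.4), -0.15 in R273H against WT (exact p = 0.1) and 0.06 between the mutants (exact p = 0.1). The adjusted values over the 3 comparisons were 0.4, 0.15 and 0.15, and 3 dishes against 3 cannot give an exact p below 0.1. WT dish 3, at 0.584, lay at the level of the G245S dishes (0.585 to 0.600), and the difference of G245S from WT was -0.15 without it and -0.06 without WT dish 2.

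CYC1 and UQCRFS1 carry electrons to cytochrome c, CYC1 through its heme and UQCRFS1, the Rieske protein, through an iron-sulfur cluster. CYC1 (ENSG00000179091) had 200, 195 and 196 CPM in WT, 224, 227 and 219 in G245S, and 215, 206 and 215 in R273H. The 3 groups did not overlap, with WT lowest and G245S highest. G245S passed with a log2 fold change of 0.18 ± 0.03 (adjusted p = 1.65e-05) and R273H with 0.11 ± 0.03 (adjusted p = 0.00453).

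UQCRFS1 (ENSG00000169021, chr19:29205320-29213151, minus strand) had 128, 134 and 129 CPM in WT, 138, 133 and 134 in G245S, and 136, 136 and 139 in R273H. G245S overlapped WT, and R273H lay just above it. Neither G245S, at a log2 fold change of 0.05 ± 0.03 (adjusted p = 0.238), nor R273H, at 0.07 ± 0.03 (adjusted p = 0.064), passed. The R273H change did pass with dish number as a replicate block and with upper-quartile normalization. UQCRFS1P1, the copy shown above, had 91.7 ± 4.5 CPM in WT, 93.2 ± 1.89 in G245S and 87.0 ± 0.961 in R273H. With the counts of its pseudogenes added, the R273H log2 fold change of UQCRFS1 was 0.02 (adjusted p = 0.68).

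The small subunits surround the catalytic core and bind no heme or iron-sulfur cluster. UQCR10 (ENSG00000184076, chr22:29767369-29770413, plus strand) had 213, 215 and 217 CPM in WT, 198, 198 and 188 in G245S, and 185, 184 and 191 in R273H. All mutant dishes lay below all WT dishes, and the mutants overlapped each other. Both falls passed, with log2 fold changes of -0.14 ± 0.03 for G245S (adjusted p = 0.000379) and -0.21 ± 0.03 for R273H (adjusted p = 2.34e-06).

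UQCRQ (ENSG00000164405, chr5:132866630-132868847, plus strand) is a small subunit that lies next to cytochrome b. It had 239.0, 233.9 and 244.6 CPM in WT, 229, 220 and 225 in G245S, and 213, 202 and 208 in R273H. The groups formed 3 steps without overlap, WT highest and R273H lowest. G245S stood at a log2 fold change of -0.09 ± 0.03 (adjusted p = 0.0208) and R273H at -0.20 ± 0.03 (adjusted p = 2.65e-06). The G245S call was lost without WT dish 3 or without G245S dish 2 or 3, with a log2 fold change between -0.11 and -0.07 over all 9 fits that left out a dish.

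UQCRB (ENSG00000156467), which also contacts cytochrome b, had 373, 377 and 403 CPM in WT, 353, 342 and 362 in G245S, and 360, 354 and 372 in R273H. All mutant dishes were below WT, by the least for R273H dish 3. Relative to WT, G245S stood at -0.13 ± 0.03 on the log2 scale (adjusted p = 0.00236) and R273H at -0.09 ± 0.03 (adjusted p = 0.0281). The R273H call was lost without WT dish 3, which had the highest value, or without R273H dish 1 or 2, with a range of -0.11 to -0.05.

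UQCRH (ENSG00000173660, chr1:46303698-46316776, plus strand), the hinge protein, binds cytochrome c1. It had 230, 216 and 229 CPM in WT, 224, 207 and 210 in G245S, and 206, 202 and 206 in R273H. R273H lay below the other groups, while the first G245S dish fell within the WT range. The log2 fold change of -0.14 ± 0.03 in R273H passed (adjusted p = 0.00101) and that of -0.08 ± 0.03 in G245S did not (adjusted p = 0.0756). UQCRHL fell in both mutants, with log2 fold changes of -0.27 for G245S (adjusted p = 0.00029) and -0.31 for R273H (adjusted p = 3.01e-05). With its pseudogenes and retrocopies added, UQCRH passed in G245S too, at -0.10 (adjusted p = 0.0124). UQCRH also passed there with dish number as a replicate block (adjusted p = 0.013), without WT dish 2 (0.0335) and without G245S dish 1 (0.0179).

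UQCR11 (ENSG00000127540, chr19:1597169-1605473, minus strand) had 127.4, 128.2 and 127.3 CPM in WT, 123.7, 121.7 and 123.2 in G245S, and 113.4, 116.1 and 114.8 in R273H. The groups did not overlap, and R273H was the lowest. R273H passed with a log2 fold change of -0.15 ± 0.03 (adjusted p = 0.000247), and the -0.06 ± 0.03 in G245S did not pass (adjusted p = 0.195).

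CYCS (ENSG00000172115, chr7:25118656-25125260, minus strand) encodes the soluble carrier that takes electrons from complex III to complex IV and that sets off caspase activation when released into the cytosol. It had 302, 299 and 313 CPM in WT, 304, 289 and 299 in G245S, and 290, 284 and 292 in R273H. G245S overlapped WT, and R273H lay below it. R273H passed at a log2 fold change of -0.08 ± 0.03 (adjusted p = 0.0326), and G245S, at -0.04 ± 0.03, did not (adjusted p = 0.353). The R273H call was lost without WT dish 3 or without any single R273H dish, with a range of -0.09 to -0.05.

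MT-CYB, the mitochondrially encoded partner of these subunits, had 429, 411 and 422 CPM in WT, 388, 378 and 383 in G245S, and 362, 355 and 360 in R273H. The groups did not overlap. Its log2 fold change reached -0.14 ± 0.02 for G245S (adjusted p = 0.000109) and -0.23 ± 0.02 for R273H (adjusted p = 2.35e-08). Per summed count of the 9 nuclear subunits, MT-CYB was 0.197 ± 0.0039 in WT, 0.177 ± 0.00088 in G245S and 0.169 ± 0.0022 in R273H. Mitochondrial ribosomes are not held by cycloheximide, the drug used to hold cytosolic ribosomes, so the level of MT-CYB is not on the same footing as that of the nuclear genes.

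Between the mutants, 1 of the 10 genes differed in a direct comparison, UQCRQ, which was higher in G245S with a log2 difference of 0.11 ± 0.03 (adjusted p = 0.0251). Among all genes 2.59% were called, 1.86% as higher and 0.732% as lower in G245S. Leaving out a dish ended the UQCRQ call 4 times in 9, without G245S dish 1 or 2 or R273H dish 2 or 3, with a range of 0.09 to 0.13. UQCR11 was next, at 0.10 with a 95% interval of 0.04 to 0.16 (adjusted p = 0.0792), and CYC1 followed at 0.08, with an interval of 0.02 to 0.13 (adjusted p = 0.155). For UQCRC2 the difference was -0.01, with an interval of -0.06 to 0.04. The median over the 10 genes was 0.05, beside 0.00059 over all genes, and it was 0.03 without G245S dish 1. These values come from the fit that left dishes unpaired. With dish number as a replicate block, 2 more of the 10 genes were called, each higher in G245S. The share of all genes called in that fit is not given. Protein-coding genes under 400 nt, grouped as described below, had a median of 0.0245, with 8.83% called higher and 0.482% lower in G245S. UQCRQ, the other small subunits and CYCS are in that length class.

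The genes that rose and those that fell differed in length. The coding regions of UQCRC1, UQCRC2, CYC1 and UQCRFS1 are 1443, 1362, 978 and 825 nt long, and those of the 5 small subunits are 336 nt or shorter, with CYCS at 318 nt. This split was made with the values known, so it is a description. The summed footprints of all 9 nuclear subunits were 2136 ± 27.5 CPM in WT, 2166 ± 25.9 in G245S and 2118 ± 28 in R273H, and the dishes of the 3 groups overlapped. The 4 large subunits summed to 945.4 ± 1.09, 1058 ± 10.0 and 1043 ± 15.2 CPM, and the 5 small ones to 1191 ± 26.6, 1108 ± 19.6 and 1075 ± 16.6 CPM. The ratio of small to large was 1.25, 1.24 and 1.29 in the WT dishes, 1.06, 1.03 and 1.06 in G245S, and 1.05, 1.02 and 1.03 in R273H, so that no mutant dish reached the WT range.

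Coding length and fold change moved together over all genes. Protein-coding genes with mean counts of 100 or more were grouped by coding length. For the 623 under 400 nt, G245S had a median log2 fold change of -0.09 with 36.3% called lower and 8.83% higher, and R273H one of -0.11 with 46.2% called lower and 5.78% higher. For the 7966 genes of 900 nt or more the medians were 0.01 and 0.02, with 14.3% called lower and 19.8% called higher for G245S, and 15.8% and 21.5% for R273H. The 31 nuclear subunits of complexes I, II, IV and V under 400 nt had medians of -0.11 and -0.14, close to the -0.09 and -0.15 of the small complex III subunits, and 21 of the 31 were lower in G245S and 25 in R273H, with 0 higher. The 38 longer subunits of those complexes had medians of -0.00045 and -0.04. Of these, 6 were called higher and 9 lower for G245S, and 5 and 15 for R273H. The 4 large complex III subunits had medians of 0.15 and 0.09. These sets were not matched for length, as most of the 38 are shorter than 825 nt, the shortest of the 4. The 2297 grouped genes from 400 nt to under 900 nt had medians of -0.03 and -0.04.

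**Figure D3:**
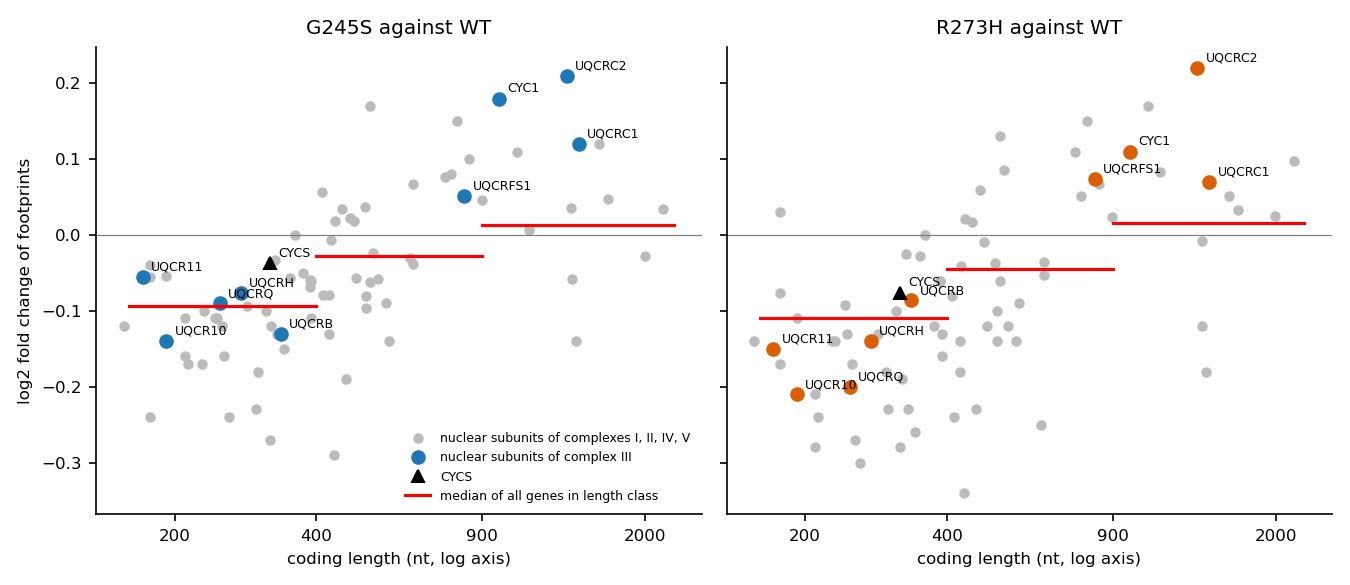
Log2 fold change of footprints against WT (y axis) by coding length in nt (log x axis) for G245S (left) and R273H (right). Large coloured points are the 9 nuclear complex III subunits, the triangle is CYCS, grey points are the 69 nuclear subunits of complexes I, II, IV and V, and red lines are medians of all protein-coding genes whose mean count was 100 or more in 3 length classes (-0.09, -0.03 and 0.01 in G245S). UQCRC2 is the highest point in both panels, and points under 400 nt lie mostly below 0.

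When the trend of counts with coding length and GC content over all such genes was removed from each library, the small subunits moved towards or past 0 and all 4 large ones were called higher in both mutants, against 3 in G245S and 2 in R273H without the correction. In G245S, 5 genes were then higher and 0 lower. The share of all genes called in that fit is not given here, so these counts have no such share beside them. UQCRC1 (0.13), UQCRC2 (0.24) and CYC1 (0.20) still passed, UQCRFS1 (0.11, adjusted p = 0.00431) and CYCS (0.07, adjusted p = 0.0311) passed anew, and the 5 small subunits lay between -0.01 and 0.08 without passing. In R273H all 4 large subunits were higher, at 0.10 (UQCRC1), 0.21 (UQCRC2), 0.16 (CYC1) and 0.14 (UQCRFS1). UQCRQ was the 1 gene lower there, at -0.08 (adjusted p = 0.0304). UQCRFS1 shares 74.1% of its windows with other genes, and no fit both removed the trend and added pseudogene counts. Adding those counts without trend removal made its R273H change smaller, as given above. Direction turned for UQCRQ (0.05), UQCRH (0.05), UQCR11 (0.08) and CYCS in G245S and for UQCR11 (0.0048) in R273H. The direct difference in UQCRQ between the mutants was 0.12 (adjusted p = 0.0111) in that fit.

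**Figure D4:**
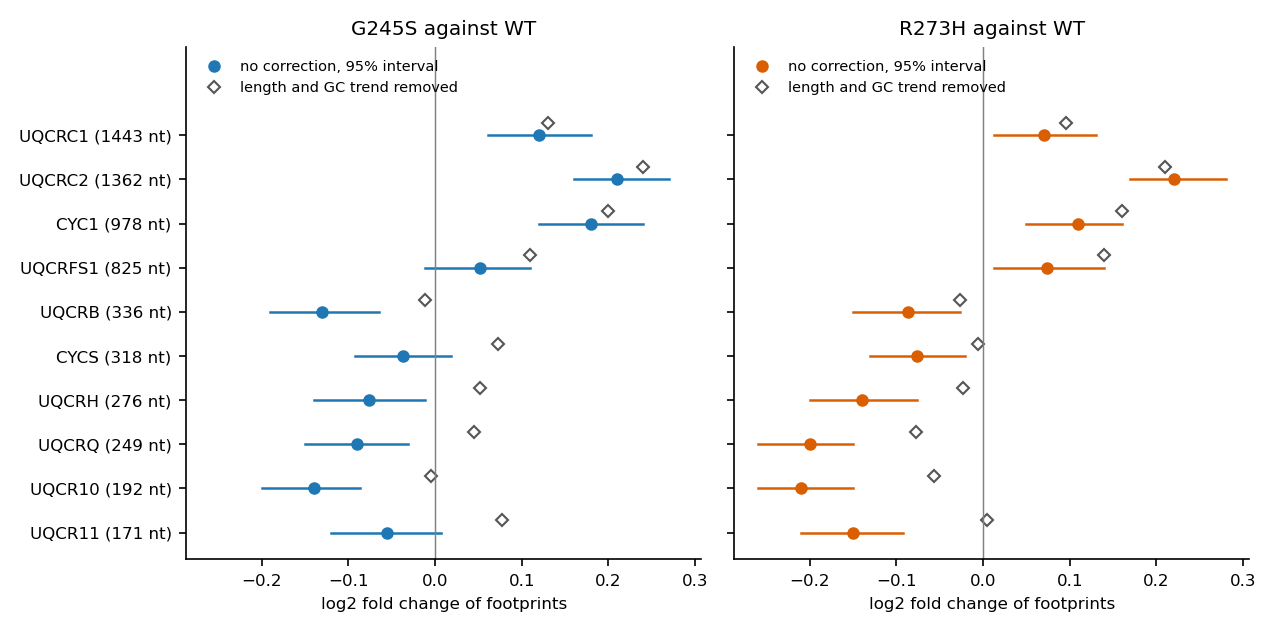
Log2 fold change of footprints against WT (x axis) for the 10 genes, ordered by coding length, in G245S (left) and R273H (right). Filled points are the values without correction with their 95% intervals, and open diamonds are the values after removal of the length and GC trend. The diamonds of the 4 longest genes stay to the right of 0 in both panels, between 0.10 and 0.24, while those of the others lie between -0.08 and 0.08.

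Per kilobase of coding region, the small subunits and CYCS carried more footprints than the large subunits. In WT, UQCRB had 1143 ± 49.2 and UQCR10 1118 ± 11.3 CPM per kb, which did not differ beyond their spread, followed by UQCRQ (960.5 ± 21.3) and CYCS (957.9 ± 23.7), which did not differ either. UQCRH had 815 ± 27.4, UQCR11 746.4 ± 2.75, MT-CYB 368.7 ± 7.68, UQCRC2 278.4 ± 8.44 and CYC1 201.3 ± 2.60 CPM per kb. UQCRC1 (165.7 ± 5.97) and UQCRFS1 (157.9 ± 3.6) were lowest and overlapped. This order rests on how shared reads were assigned. With the counts of all genes that share a window added, a setting chosen after seeing the data, UQCRFS1 had 269.7 ± 6.06 CPM per kb, above CYC1 and UQCRC1, and CYCS 1223 ± 38.6, beside 1175 ± 49.3 for UQCRB. Whether the counts cover whole transcripts is not stated, and untranslated bases would weigh most in the shortest genes.

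**Figure D5:**
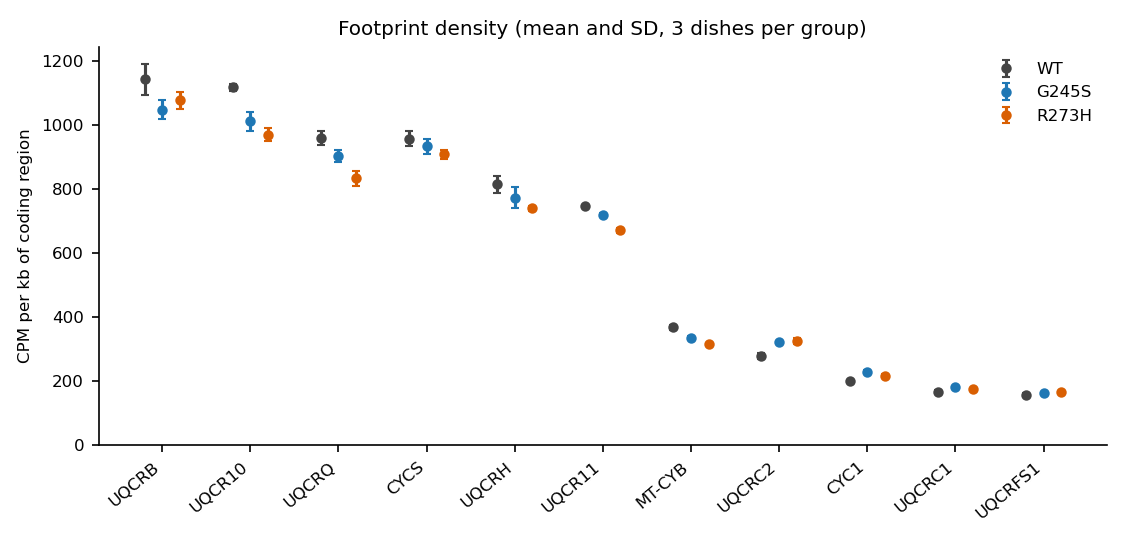
Footprint density in CPM per kb of coding region (y axis, from 0) for the 10 genes and MT-CYB, ordered by the WT level, as mean (point) and SD (bar) of 3 dishes per group. Densities run from 1143 for UQCRB to 157.9 for UQCRFS1 in WT, and the order of the large subunits is the same in all 3 groups.

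For the other genes of the pathway, the shares called are read against the 24.7% of all genes called in G245S and 28.8% in R273H. Of 10 genes for complex III assembly and heme attachment, G245S had 2 higher and 2 lower, and R273H had 2 higher and 1 lower, which is 40% and 30% of the list. BCS1L, which inserts the Rieske protein, rose in both, with log2 fold changes of 0.25 for G245S (adjusted p = 8.52e-05) and 0.22 for R273H (adjusted p = 0.000261). TTC19, needed to clear Rieske fragments, rose by 0.22 in G245S (adjusted p = 0.00407) and was at 0.07 in R273H (adjusted p = 0.368). UQCC2, which acts on newly made cytochrome b, fell in both (log2 fold changes of -0.14 and -0.24), and the assembly factor UQCC5 fell in G245S (-0.11, adjusted p = 0.0336) and was at -0.0061 in R273H (adjusted p = 0.922). After removal of the length and GC trend UQCC5 turned to 0.04 in G245S and to 0.13 in R273H (adjusted p = 0.00204), and UQCC2 did not pass in G245S. The UQCC5 call in G245S was also lost without WT dish 1 or 2 or G245S dish 2 or 3. Upper-quartile normalization, no filter on low counts, DESeq2 and a fit of only the 6 libraries compared ended that call too.

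Of 13 genes for coenzyme Q synthesis, 1 rose and 1 fell in G245S, and 1 rose and 2 fell in R273H, or 15.4% and 23.1%, under the share of all genes. PDSS1, which makes the isoprenoid tail, rose to log2 fold changes of 0.15 for G245S (adjusted p = 0.0485) and 0.29 for R273H (adjusted p = 0.000147). COQ8A, an atypical kinase of the pathway, fell in both (-0.27 and -0.36), and COQ9, a lipid-binding factor, fell in R273H (-0.17, adjusted p = 0.0181) and was at -0.10 in G245S (adjusted p = 0.214). The PDSS1 call in G245S was lost without any single dish other than WT dish 2 and R273H dish 3, and the COQ9 call in R273H without WT dish 3 or R273H dish 2 or 3. DESeq2 ended both calls. The PDSS1 call was also lost with no filter on low counts, and the COQ9 call with the length and GC trend removed. Of 10 genes whose enzymes reduce coenzyme Q, 2 rose and 2 fell in G245S (40%), and 1 rose and 2 fell in R273H (30%, near the share of all genes).

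GPD2, the mitochondrial glycerol-3-phosphate dehydrogenase, rose by 0.21 and 0.34. The complex II subunit SDHB rose by 0.10 in G245S (adjusted p = 0.0133) and was at 0.07 in R273H (adjusted p = 0.0881), while SDHC fell in both (-0.10 and -0.14). The SDHB call in G245S was lost without WT dish 1. In R273H, SDHB passed in 6 of 19 alternatives, among them upper-quartile normalization (adjusted p = 0.0374), a replicate block (0.0191) and trend removal (0.00369). The SDHC calls were lost with the trend removed and, in G245S, without WT dish 2 or G245S dish 3. PRODH, proline dehydrogenase, which p53 is known to activate, fell in both (-1.47 and -1.99) from a low level of 1.17 ± 0.194 CPM in WT, and its G245S call was lost without G245S dish 2 (-1.08). Both supercomplex factors that were called fell, COX7A2L at -0.10 in each mutant and HIGD2A at -0.13 and -0.25, out of 3 tested. The COX7A2L calls were lost in both mutants with the trend removed (0.01 in G245S) and without WT dish 1 or 3, G245S dish 2 or 3 (in G245S) or R273H dish 1 or 2 (in R273H), and the HIGD2A call in G245S was lost with the trend removed. No filter on low counts also ended the COX7A2L calls in both mutants, and upper-quartile normalization and DESeq2 ended the one in G245S.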

How the data were processed

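Expected counts per gene (estimated footprint counts that need not be whole) were deposited for 9 libraries, 3 dishes in each of 3 groups. Per the study's methods and processing notes, the authors trimmed reads (Trim Galore, cutadapt), removed rRNA and aligned to GRCh38 with STAR; the counting tool, annotation release, strand and multi-mapping rules are not given in the sources used here. Between 61.5% and 63.7% of nonzero values were not whole, and each value was rounded before testing. One fit over all 9 libraries used edgeR 4.0.16 in R 4.3.3 (TMM, filterByExpr, robust quasi-likelihood, BCV 2.58%, 6 residual degrees of freedom), called at adjusted p under 0.05, and was tested on simulated data. CPM used TMM-scaled depth. Alternatives were DESeq2 1.42.0, other normalizations, no filter, a dish block, removal of a length and GC trend (natural splines, 4 degrees of freedom), sums with pseudogenes and leaving out each dish. Coding regions, coordinates and windows came from GENCODE 44 on GRCh38, which matched 99.1% of gene IDs.

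The 10 genes, the lists and the tests were chosen with earlier results of these data known. Named beside them are MT-CYB and, from each pathway list, up to 2 genes with the largest rise and 2 with the largest fall among those called in either mutant, plus the 5 genes most like the subunits' mean profile. Of the cell type markers, 1 is not reported here.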

Additional observations from a re-analysis of the deposited data

Results flagged for a closer look

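A direct test between G245S and R273H separated 3 of the named genes, which compares the changes of the mutants against WT. Among all genes 2.59% were called in that test. In the length class under 400 nt, which holds UQCRQ and HIGD2A, 8.83% were called higher and 0.482% lower in G245S. HIGD2A was named because of its fall against WT in these same data. The log2 difference was 0.11 for UQCRQ (adjusted p = 0.0251), 0.094 for MT-CYB (adjusted p = 0.032) and 0.12 for HIGD2A (adjusted p = 0.0413), by edgeR's quasi-likelihood test adjusted over all genes. All 3 were lower in both mutants than in WT, and lower in R273H than in G245S. With the length and GC trend removed, UQCRQ stood at 0.045 in G245S and -0.077 in R273H. Each difference was sensitive to single dishes. The UQCRQ call was lost in 4 of the 9 fits without a dish, the MT-CYB call in 7 of 19 alternatives (0.086 to 0.13 over all 19) and the HIGD2A call in 12 of 19 (0.084 to 0.14).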

How the results depend on the processing

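Calls near the threshold moved with the settings. Shares of all genes called are given only for the main fit, so counts from the other fits stand without one. Without the length and GC trend, calls in G245S against WT were 5 higher and 0 lower with a median of 0.075, and in R273H against WT 5 in all, 4 higher and 1 lower, with a median of -0.00035. Turned values in that fit were UQCR11 0.077, UQCRQ 0.045, CYCS 0.073 and UQCRH 0.052 in G245S, UQCR11 0.0048 in R273H, and UQCRC2 0.031 and UQCRB 0.014 between the mutants. The same dish number in 2 groups correlated at 0.0421 to 0.229 over 9 pairs, over 0.1 in 4, and other pairs at -0.184 to 0.0583. In 17 of 18 comparisons a dish correlated best with its own number, so dishes of 1 number were more alike. The main fit nevertheless left dishes unpaired. With dish number as a replicate block, 4 genes were higher in R273H, against 2 in the main fit. Between the mutants 3 were called, all 3 higher in G245S, against 1 in the main fit. The replicate block with the trend removed gave 6 higher and 0 lower in G245S (median 0.074; UQCR11 0.075, UQCRQ 0.045, CYCS 0.073, UQCRH 0.052), 5 called in R273H, 4 higher and 1 lower (median -0.00023; UQCR11 0.0049), and 2 called between the mutants, 2 of them higher in G245S (UQCRC2 0.031, UQCRB 0.014). Upper-quartile normalization gave 4 higher in R273H. Summing with pseudogenes turned UQCRFS1 between the mutants to 0.031, and so did summing with every gene that shares a window, 0.031, a setting chosen after seeing the data, which called 2 genes there, 2 higher. Leaving out 1 dish at a time, the count between the mutants ran from 0 to 1, the higher ones from 0 to 1 and the median from 0.033 (without G245S dish 1) to 0.069; the median in R273H against WT ran from -0.095 to -0.05 (without WT dish 3), and UQCRC2 between the mutants ran from -0.029 to 0.0081. The CYCS call in R273H was also lost with DESeq2, upper-quartile normalization and no filter, and upper-quartile normalization ended the calls of UQCRB in R273H (adjusted p = 0.0868) and UQCRQ in G245S (adjusted p = 0.0572). The same alternatives were run for MT-CYB and the named pathway genes after seeing the data. There UQCC5 turned to 0.037 in G245S with the trend removed, with and without the block, and in R273H to 0.13 in both and to 0.0097 with upper-quartile normalization and 0.0044 with no filter, and COX7A2L turned to 0.014 in G245S with the trend removed and to 0.013 with the replicate block added. The cause of these changes was not tested. The nuclear subunit genes and CYCS each had a mean of at least 2560 counts per library. Means of the named pathway genes ran from 12.67 (PRODH) to 5918 (SDHC), with UQCC5 at 1758 and COX7A2L at 2360. In addition, 3 dishes from 1 pool per group limit every comparison.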

Other observations

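Over the 9 libraries, 5 genes (mean count 100 or more) had a log2 CPM most like the mean profile of the 9 nuclear subunits, namely the histone H3 genes H3C15 (Pearson r = 0.977) and H3C14 (r = 0.976), DNAJC16 (r = 0.967), the ribosomal protein gene RPL35 (r = 0.966) and the ADP/ATP carrier gene SLC25A5 (r = 0.955). The subunits' mean profile itself spanned only 0.0788 on the log2 scale, all points share the same 9 libraries, and H3C14 and H3C15 are near-identical copies. The profile averages the 4 large subunits, higher in both mutants than in WT, with the 5 small ones, which were lower. Those opposite changes partly cancel, so the profile need not follow any single subunit.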
